A study of Mus musculus with 14 samples.

Results

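The cytochrome P450 genes were followed in RNA from whole mouse kidney, with and without ureteral obstruction. A gene counted as a member when its Ensembl identifier belonged to a protein-coding gene whose mouse symbol is Cyp followed by a digit, Cyp27b1 and Cyp24a1 excepted, and when at least 3 of the 14 libraries held 10 or more counts of it. Of 100 such symbols, 2 were left out by name and 47 lay under that minimum, 12 of these without a count in any library. The 51 members, out of 47729 genes in all, belonged to 13 families and 28 subfamilies. All 51 passed the filter of the fit, and 34 of them had 10 or more counts in every library. Cyp2c69 and Cyp2f2 reached 10 counts in no UUO library and Cyp8b1 in no normal library. For these 3 the minimum was met in 1 state only. Cyp17a1 reached 10 counts in only 1 UUO library (11 counts). Cyp4f18 did so in only 1 normal library (10 counts), and Cyp4f39 in only 2 (14 and 17 counts). These members too met the minimum of 3 libraries within 1 state only.

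The design crosses 2 genotype labels with 2 states of the kidney, and the question is how obstruction of the ureter, a standard surgical model of renal scarring, changes the transcriptome and whether a Smoc2 transgene alters that change. Smoc2 encodes a secreted protein of the extracellular matrix. The libraries came from 4 kidneys after 7 days of unilateral ureteral obstruction (UUO) in mice labelled SMOC2 Transgenic (SMOC2 UUO) and 3 untreated kidneys under the same label (SMOC2 normal), and from 4 such obstructed kidneys (WT UUO) and 3 untreated ones (WT normal) of wild-type mice. Total counts ran from 19483994 to 30033405 per library. Strain, age and the promoter behind the transgene are not stated for these groups. A treatment text shared by all samples speaks of folic acid in male Balb/c mice and of no obstruction, so the groups follow the sample titles and descriptions. Levels are in CPM, counts scaled to library size by the TMM method. At 2 points the libraries went against the labels or the shared text. Smoc2 averaged 96.1 ± 18.5 CPM in SMOC2 UUO and 21.8 ± 9.66 CPM in SMOC2 normal kidneys, against 147 ± 11.4 CPM in WT UUO and 25.2 ± 16.1 CPM in WT normal kidneys (SD, n = 4, 3, 4 and 3), so no excess of Smoc2 marked the libraries labelled transgenic. Xist, the transcript of the inactive X chromosome, was at 964 to 1423 CPM in all 14 libraries, while the summed counts of Y-linked genes were 0 to 2. This is the pattern of female kidneys, whereas the shared treatment text speaks of male mice. Whether every library is a separate animal is not stated, so p-values measure the spread between libraries.

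P450 enzymes are haem proteins that use molecular oxygen to add a hydroxyl or epoxide group to fatty acids, sterols, retinoids and foreign compounds. Most sit in the endoplasmic reticulum and take electrons from P450 reductase (Por), while the mitochondrial ones take them from ferredoxin (Fdx1). In the kidney they are concentrated in the proximal tubule, where CYP4A enzymes turn arachidonic acid into a vasoconstrictor hydroxy acid and CYP2J and CYP2C enzymes turn it into epoxides.

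Promoter sequences are shown for pairs of relatives whose levels are described below, the CYP1 and CYP2J pairs because their transcripts moved in opposite directions and the CYP2A pair because they moved together. They are the 250 bases before the RefSeq start (GRCm38.p6), 5′ to 3′ on the strand of the gene. In the CYP1 pair, capitals mark GCGTG or its reverse complement CACGC, the core letters of the element that the aryl hydrocarbon receptor binds. The Cyp1a1 stretch is chr9:57697363-57697612 (plus strand) and the Cyp1b1 stretch is chr17:79715062-79715311 (minus strand). Cyp1a1 held the letters from position -54 and Cyp1b1, on the other strand, from -76, counted from the start.
Cyp1a1: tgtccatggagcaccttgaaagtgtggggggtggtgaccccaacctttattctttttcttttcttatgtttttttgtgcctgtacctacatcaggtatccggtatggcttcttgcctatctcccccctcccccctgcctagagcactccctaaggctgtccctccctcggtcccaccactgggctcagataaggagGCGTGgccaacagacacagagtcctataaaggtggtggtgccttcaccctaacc
Cyp1b1: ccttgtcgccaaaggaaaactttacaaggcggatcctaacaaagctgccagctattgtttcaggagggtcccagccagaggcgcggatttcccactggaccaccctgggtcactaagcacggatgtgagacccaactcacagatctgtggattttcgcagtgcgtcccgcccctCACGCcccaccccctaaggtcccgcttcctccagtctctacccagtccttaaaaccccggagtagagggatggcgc
In the CYP2J pair, capitals mark AGGTCA or TGACCT, a half-site of nuclear receptors. Cyp2j5 (chr4:96664120-96664369, minus strand) held it at -197, and the stretch of Cyp2j13 (chr4:96077541-96077790, minus strand) did not hold these letters. Nor did the 300-base windows of Cyp2j11 and Cyp2j8, which fell like Cyp2j5, or those of Cyp2j6 and Cyp2j9. Cyp2j7 had no window.
Cyp2j5: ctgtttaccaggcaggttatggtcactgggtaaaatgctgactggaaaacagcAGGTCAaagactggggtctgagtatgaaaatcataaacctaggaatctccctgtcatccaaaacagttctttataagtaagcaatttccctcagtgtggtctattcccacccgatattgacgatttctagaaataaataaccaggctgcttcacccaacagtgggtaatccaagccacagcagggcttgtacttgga
Cyp2j13: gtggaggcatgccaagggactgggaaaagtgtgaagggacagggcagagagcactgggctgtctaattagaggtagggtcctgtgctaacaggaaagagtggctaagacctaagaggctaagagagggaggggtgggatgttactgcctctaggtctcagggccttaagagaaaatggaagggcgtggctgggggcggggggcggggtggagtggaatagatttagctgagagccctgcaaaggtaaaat
In the CYP2A pair, capitals mark GTTAAT or ATTAAC, a half-site of the tubular factor HNF1, which began at -160 in Cyp2a4 (chr7:26306942-26307191, plus strand) and at -161 in Cyp2a5 (chr7:26835089-26835338, plus strand).
Cyp2a4: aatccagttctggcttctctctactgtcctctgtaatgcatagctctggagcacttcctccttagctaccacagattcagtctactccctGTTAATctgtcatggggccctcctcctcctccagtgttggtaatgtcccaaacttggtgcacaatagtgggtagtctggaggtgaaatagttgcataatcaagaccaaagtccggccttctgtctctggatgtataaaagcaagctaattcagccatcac
Cyp2a5: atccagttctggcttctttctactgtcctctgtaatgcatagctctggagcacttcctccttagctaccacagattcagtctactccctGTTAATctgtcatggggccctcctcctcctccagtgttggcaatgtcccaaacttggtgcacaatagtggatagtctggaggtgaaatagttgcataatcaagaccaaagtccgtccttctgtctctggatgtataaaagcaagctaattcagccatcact
The windows of Cyp2a4 and Cyp2a5, with the 50 bases after the start, were the same at 294 of 299 positions (98.3%) after a shift of 1 base. Over windows of 300 bases, GCGTG in either strand was found in 32.4% of 32851 promoters of all genes and in 31.7% of 41 windows of 37 matched members. AGGTCA was found in 16.3% of all and 14.6% of member windows, and GTTAAT in 7.10% of all and 14.6% (6 windows) of member windows. These motifs were chosen after the levels were known, and a match describes the letters only.

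Obstructed kidneys held far less P450 messenger RNA. Summed over the 51 genes, the level was 1282, 1572, 1796 and 1842 CPM in SMOC2 UUO kidneys, against 5725, 5714 and 6133 CPM in SMOC2 normal kidneys. In WT it was 1249, 1598, 1162 and 2128 CPM in UUO kidneys, against 5954, 5839 and 5236 CPM in normal kidneys. Every UUO library lay below every normal library, at 27.7% of the normal mean in SMOC2-labelled and 27.0% in WT kidneys. Single genes moved both ways. In SMOC2-labelled kidneys 29 members fell, 13 rose and 9 did not pass the test, where 30.4% of all 17926 genes tested were called lower and 32.5% higher (62.8% in all). In WT kidneys 25 fell, 12 rose and 14 did not pass, where 29.8% of all genes were called lower and 31.3% higher (61.1% in all). A call is an adjusted p under 0.05 in edgeR's quasi-likelihood test with Benjamini-Hochberg adjustment over all genes. The members' median log2 fold change was -0.996 in SMOC2-labelled and -0.997 in WT kidneys, beside 0.04 and 0.05 over all genes. Falls of at least 2-fold were called for 24 and 23 members, against 13.7% and 12.8% of all genes. These falls include Cyp2c69, Cyp2f2 and Cyp17a1, which met the minimum of 3 libraries only through normal kidneys. Both comparisons called 25 members lower and 11 higher, and no member was called in opposite directions. The 25 include those same genes. The 11 include Cyp8b1 and Cyp4f18, which met the minimum only through obstructed kidneys. Of the 38 members that share at most 10% of their 50-base exon windows with another gene, 20 fell and 10 rose in SMOC2-labelled and 16 fell and 9 rose in WT kidneys. Among the 33 of these with no exon overlap on the opposite strand, 18 fell and 8 rose in SMOC2-labelled and 14 fell and 7 rose in WT kidneys. Without Cyp2c69, Cyp2f2 and Cyp8b1, which reached 10 counts in no library of 1 state, 27 fell and 12 rose in SMOC2-labelled kidneys. In WT kidneys 23 fell and 11 rose. The median log2 fold change of these 48 members was -0.984 in SMOC2-labelled and -0.883 in WT kidneys. These counts and medians still hold the falls of Cyp17a1 and the rises of Cyp4f18, which met the minimum of 3 libraries within 1 state.

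**Figure D1:**
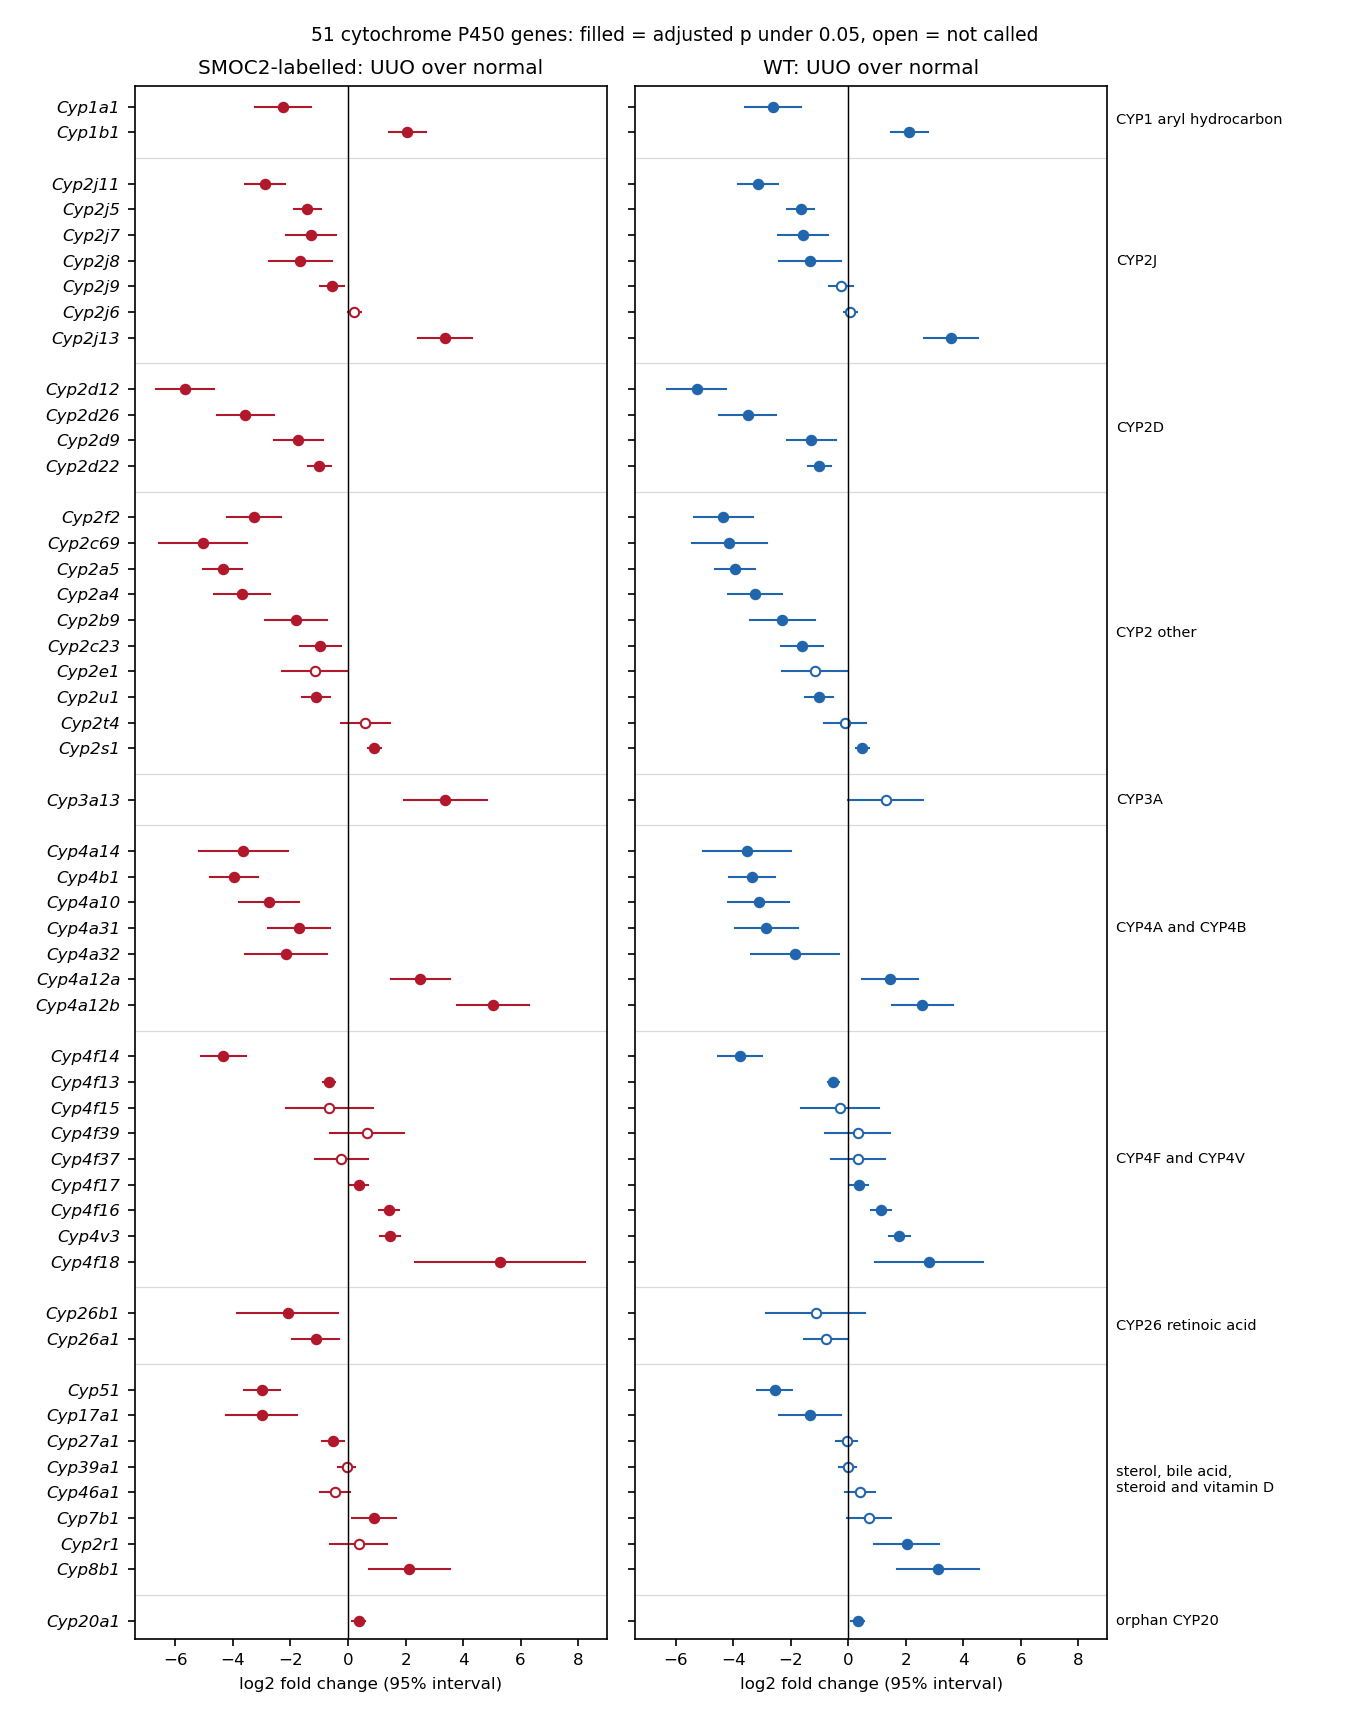
Log2 fold change (x axis) of each of the 51 P450 genes in UUO over normal kidneys, for SMOC2-labelled (left) and WT kidneys (right). Points are estimates and lines 95% intervals, filled points have an adjusted p under 0.05, and genes are grouped by role. In the left panel 29 genes are called lower and 13 higher, in the right panel 25 and 12.

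Markers of the cells that hold most renal P450 moved with this result. The 12 proximal tubule markers all fell in both comparisons, and their summed level was 3203 to 5439 CPM in SMOC2 UUO and 31478 to 35279.6 CPM in SMOC2 normal kidneys. It was 2169 to 5619.6 CPM in WT UUO and 30036 to 33783 CPM in WT normal kidneys. Fewer cells of a type and less RNA per cell cannot be told apart in RNA of a whole organ. The P450 sum equalled 37.4 ± 3.03% of the marker sum in SMOC2 UUO and 17.3 ± 0.906% in SMOC2 normal kidneys, and 46.4 ± 9.78% in WT UUO and 18.1 ± 1.16% in WT normal kidneys (SD, n = 4, 3, 4 and 3). This percentage was higher in each of the 8 obstructed libraries than in any of the 6 normal ones. Macrophage markers rose for 7 of 8 genes in SMOC2-labelled and 8 of 8 in WT kidneys, with a summed level of 1473 to 2455 CPM in SMOC2 UUO and 226 to 277 CPM in SMOC2 normal kidneys. In WT that sum was 1985 to 2191 CPM in UUO and 228 to 253 CPM in normal kidneys. All 7 fibroblast and pericyte markers rose in both comparisons. Their sum was 2421 to 3354 CPM in SMOC2 UUO and 162 to 309 CPM in SMOC2 normal kidneys, and 1756 to 3175 CPM in WT UUO and 209.8 to 432 CPM in WT normal kidneys. For scale, 30.4% of all genes were called lower and 32.5% higher in SMOC2-labelled kidneys, and 29.8% and 31.3% in WT kidneys. The part of these cell types in the P450 changes was not tested.

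**Figure D2:**
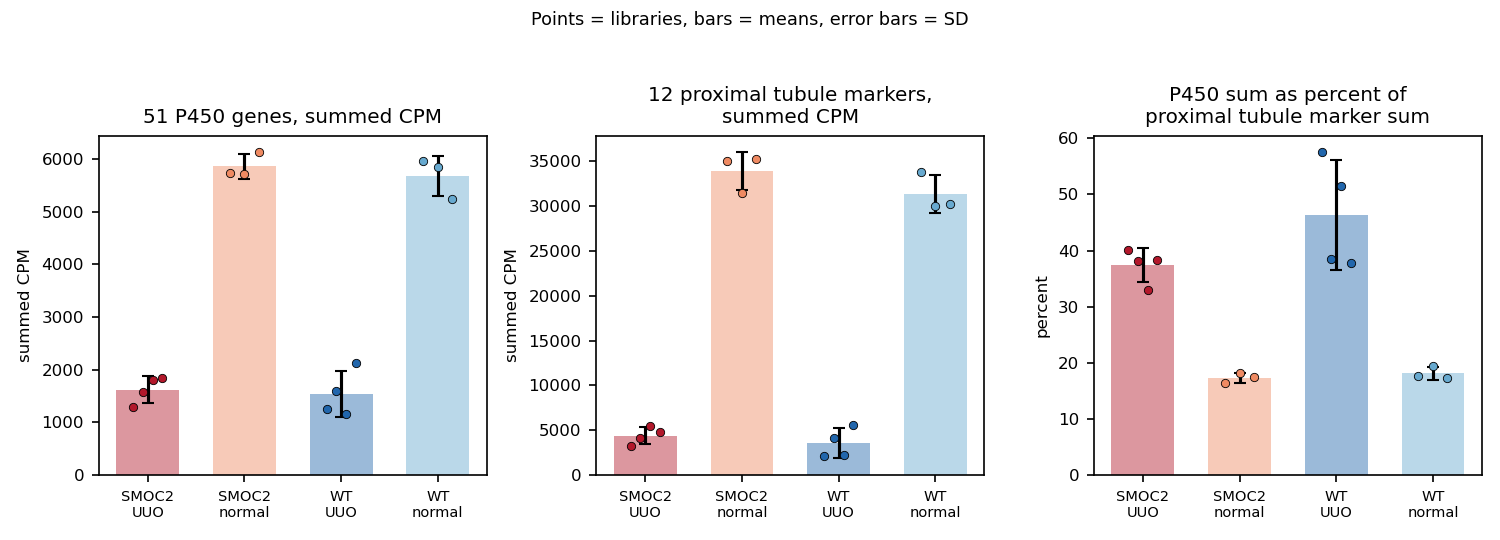
Summed CPM of the 51 P450 genes (left), summed CPM of 12 proximal tubule markers (middle) and the first as a percentage of the second (right), by group. Points are libraries, bars means and error bars SD; the obstructed libraries are lowest in the left and middle panels and highest in the right panel.

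Per kilobase of exon, which allows levels of different genes to be set side by side, Cyp2j5 was the most abundant member in all 4 groups. It averaged 229 ± 32.3 CPM per kilobase in SMOC2 UUO and 612 ± 37.9 in SMOC2 normal kidneys, and 208 ± 73.02 in WT UUO and 653 ± 18.6 in WT normal kidneys. Next in WT normal kidneys came Cyp4a10 at 284 ± 89.01, Cyp4a14 at 265 ± 56.8, Cyp2a4 at 186 ± 104 and Cyp4b1 at 184 ± 56.04 CPM per kilobase (SD, n = 3). The spread of these 4 overlapped its neighbours in that order, while that of Cyp2j5 did not. Cyp2e1 ranked 4 of 51 in WT UUO and 10 of 51 in WT normal kidneys, and 12 of 51 in both SMOC2 groups.

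The CYP1 enzymes oxidise aromatic hydrocarbons and steroids. Cyp1a1, the classical target of the aryl hydrocarbon receptor, was low throughout. Cyp1a1 was at 0.2801, 0.674, 0.495 and 0.365 CPM in SMOC2 UUO kidneys, against 1.75, 3.496 and 1.25 CPM in SMOC2 normal kidneys. In WT, Cyp1a1 was at 0.395, 0.438, 0.141 and 0.556 CPM in UUO kidneys, against 3.48, 1.9 and 1.64 CPM in normal kidneys. Every obstructed library lay below every normal one. Cyp1a1 had a log2 fold change of -2.25 (SE 0.46, adjusted p = 0.000645) in SMOC2-labelled and -2.61 (SE 0.46, adjusted p = 0.000209) in WT kidneys. Cyp1b1 (chr17:79701537-79715061, minus strand), which hydroxylates oestradiol and is found in stromal as well as epithelial cells, went the other way. Cyp1b1 was at 86.99, 103, 100.3 and 116 CPM in SMOC2 UUO kidneys, against 27.2, 32.1 and 14.01 CPM in SMOC2 normal kidneys. In WT, Cyp1b1 was at 144, 90.8, 121 and 166 CPM in UUO kidneys, against 17.8, 32.5 and 39.4 CPM in normal kidneys. All 8 obstructed libraries exceeded all 6 normal ones. Cyp1b1 changed on the log2 scale by 2.06 (SE 0.303, adjusted p = 4.03e-05) in SMOC2-labelled and 2.12 (SE 0.301, adjusted p = 3.11e-05) in WT kidneys. Of the receptor's own genes, Ahr rose in SMOC2-labelled kidneys by 0.43 on the log2 scale (adjusted p = 0.00839), and its change of 0.24 in WT kidneys did not pass (adjusted p = 0.113). Its repressor Ahrr rose in WT kidneys by 1.84 (adjusted p = 0.00363), with 1.12 in SMOC2-labelled kidneys (adjusted p = 0.0605).

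CYP2J enzymes are epoxygenases of arachidonic acid. Of 7 members 5 fell and 1 rose in SMOC2-labelled kidneys, and 4 fell and 1 rose in WT kidneys. Beside this, 30.4% of all genes were called lower and 32.5% higher in SMOC2-labelled kidneys, and 29.8% and 31.3% in WT kidneys. Cyp2j5 (chr4:96628773-96664154, minus strand), the epoxygenase long known from mouse proximal tubule, fell. Cyp2j5 was at 432, 569, 540 and 609 CPM in SMOC2 UUO kidneys, against 1396, 1370.5 and 1536 CPM in SMOC2 normal kidneys. In WT, Cyp2j5 was at 399, 581, 299 and 676 CPM in UUO kidneys, against 1484, 1535 and 1571 CPM in normal kidneys. The highest obstructed library stood at less than the lowest normal one in both labels. For Cyp2j5 the log2 fold change was -1.42 (SE 0.21, adjusted p = 5.28e-05) in SMOC2-labelled and -1.65 (SE 0.22, adjusted p = 1.46e-05) in WT kidneys. Cyp2j11 fell more steeply. Cyp2j11 was at 24.4, 35.3, 39.4 and 42.6 CPM in SMOC2 UUO kidneys, against 258, 217 and 306 CPM in SMOC2 normal kidneys. In WT, Cyp2j11 was at 14.9, 43.6, 24.05 and 48.4 CPM in UUO kidneys, against 283, 337 and 238 CPM in normal kidneys. Again the groups did not overlap. Cyp2j11 had a log2 fold change of -2.88 (SE 0.32, adjusted p = 3.15e-06) in SMOC2-labelled and -3.13 (SE 0.33, adjusted p = 1.72e-06) in WT kidneys. Cyp2j13 (chr4:96027534-96077546, minus strand), at the far end of the same gene cluster, was the member that rose. Cyp2j13 was at 5.79, 13.9, 10.8 and 10.7 CPM in SMOC2 UUO kidneys, against 1.69, 0.943 and 0.417 CPM in SMOC2 normal kidneys. In WT, Cyp2j13 was at 15.01, 6.698, 12.2 and 10.2 CPM in UUO kidneys, against 1.01, 1.12 and 0.662 CPM in normal kidneys. Obstructed libraries were all above normal ones. Cyp2j13 changed on the log2 scale by 3.36 (SE 0.44, adjusted p = 1.23e-05) in SMOC2-labelled and 3.58 (SE 0.43, adjusted p = 6.95e-06) in WT kidneys. The low members Cyp2j7 and Cyp2j8 fell in both labels, by 1.29 and 1.66 on the log2 scale in SMOC2-labelled and by 1.58 and 1.33 in WT kidneys. The SMOC2 call of Cyp2j7 was lost without SMOC2 normal replicate 4 (adjusted p = 0.0568). Cyp2j8 missed the threshold in WT kidneys without WT UUO replicates 1 or 4 or WT normal replicates 2 or 3 (adjusted p from 0.0603 to 0.105), and under upper-quartile scaling (adjusted p = 0.0509). Cyp2j6, present in many tissues, was within 53.3 to 76.2 CPM in SMOC2 UUO and 50.2 to 57.7 CPM in SMOC2 normal kidneys. In WT its range was 61 to 66.7 CPM in UUO and 60.5 to 62.3 CPM in normal kidneys, and neither comparison passed (adjusted p = 0.0899 and 0.566). The 95% interval of its log2 fold change ran from -0.01 to 0.43 in SMOC2-labelled and from -0.15 to 0.29 in WT kidneys. Cyp2j6 passed in SMOC2 kidneys without SMOC2 UUO replicate 2 (adjusted p = 0.022), and under upper-quartile scaling (adjusted p = 0.0155). Cyp2j9 was called lower in SMOC2-labelled kidneys only. Cyp2j9 was at 10.2, 10.4, 17.4 and 16.4 CPM in SMOC2 UUO kidneys, against 19.2, 22.8 and 18.2 CPM in SMOC2 normal kidneys. In WT, Cyp2j9 was at 15.01, 18.9, 12.8 and 15.05 CPM in UUO kidneys, against 17.6, 19.7 and 17.8 CPM in normal kidneys. The WT groups overlapped. For Cyp2j9 the log2 fold change was -0.56 (SE 0.19, adjusted p = 0.0193) in SMOC2-labelled and -0.25 (SE 0.19, adjusted p = 0.272) in WT kidneys. Cyp2j9 missed the threshold in SMOC2 kidneys without SMOC2 UUO replicates 1 or 2 or SMOC2 normal replicate 3 (adjusted p from 0.0559 to 0.0864), and under upper-quartile scaling (adjusted p = 0.0572). The test of the difference between the labels gave an unadjusted p of 0.268 for Cyp2j9.

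**Figure D3:**
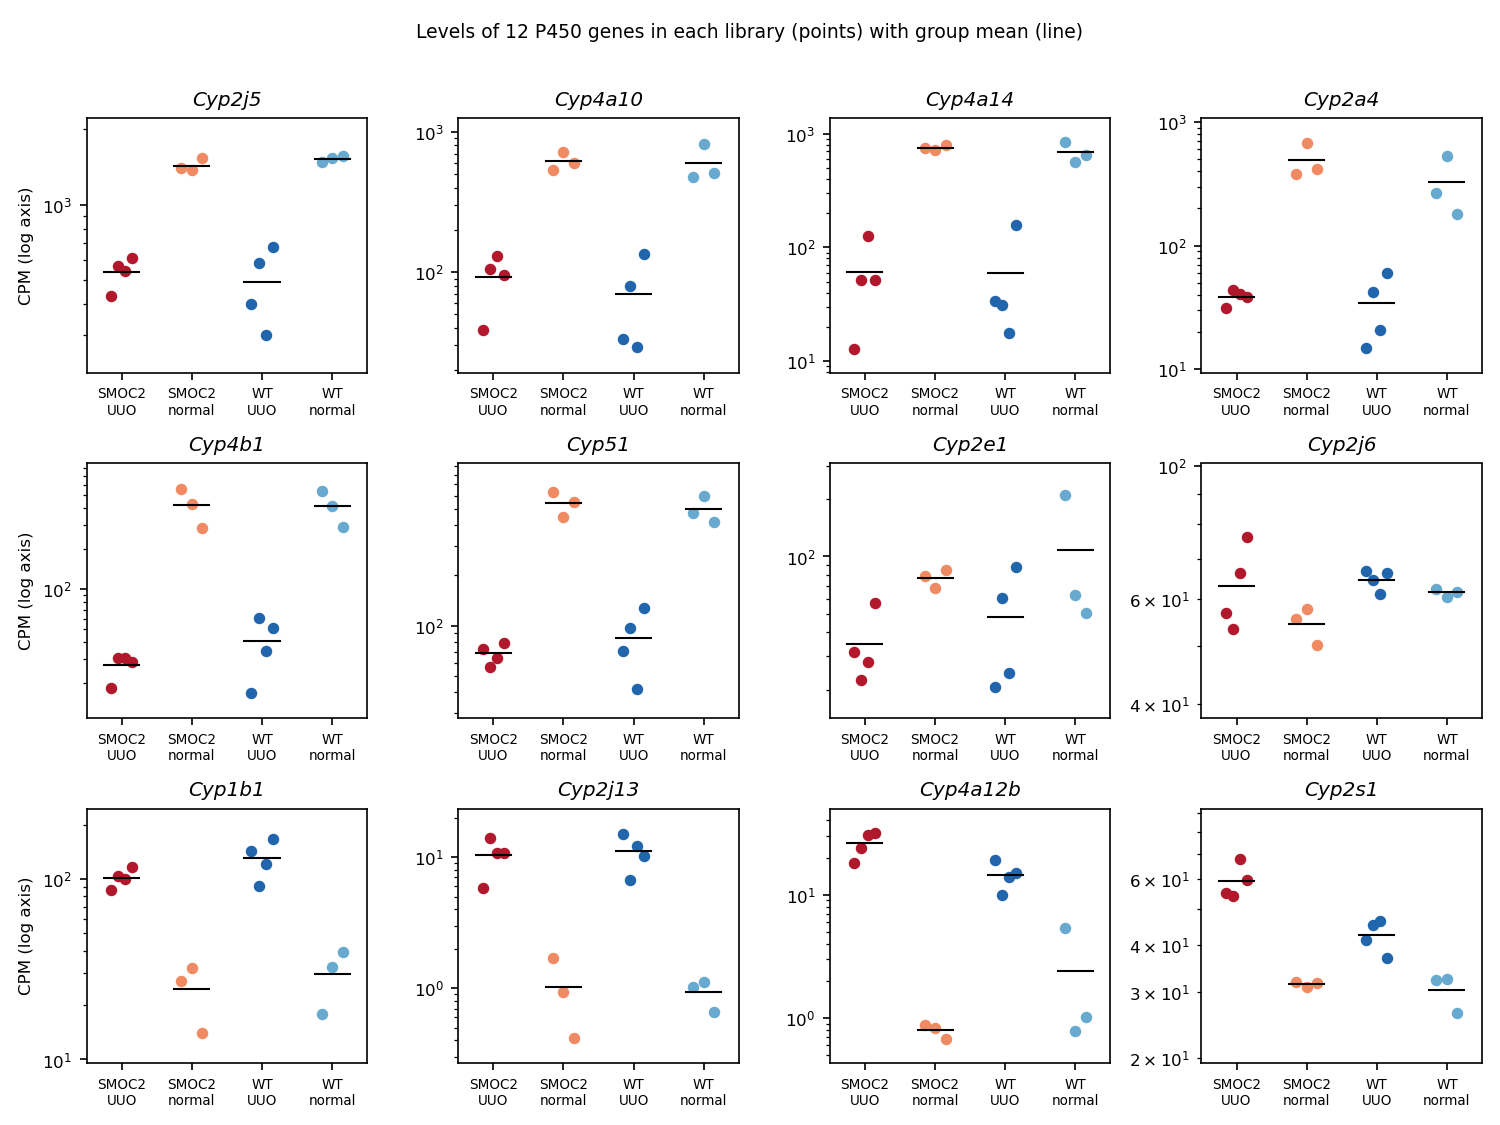
CPM of 12 P450 genes in every library, on log axes that differ between panels, by group. Points are libraries and lines group means. Cyp2j5, Cyp4a10, Cyp4a14, Cyp2a4, Cyp4b1 and Cyp51 are lower in every UUO library than in any normal one of their label, Cyp1b1, Cyp2j13, Cyp4a12b and Cyp2s1 are higher, and Cyp2j6 and the WT points of Cyp2e1 overlap.

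The CYP2A, 2B, 2C, 2E, 2F, 2S, 2T and 2U members handle steroids, drugs and fatty acids. Of these 10 genes 7 fell and 1 rose in each label. Beside this, 30.4% of all genes were called lower and 32.5% higher in SMOC2-labelled kidneys, and 29.8% and 31.3% in WT kidneys. The 7 include Cyp2c69 and Cyp2f2, which met the count minimum through normal kidneys alone. Cyp2a4, a steroid hydroxylase, and Cyp2a5, which hydroxylates coumarin, are close relatives in the same gene cluster. Of the 50-base windows of their exons 38.8% and 37.03% were shared with another gene, and 36.1% and 28.1% with each other. The split of reads between them is therefore uncertain. Cyp2a4 was at 31.2, 43.4, 40.6 and 38.4 CPM in SMOC2 UUO kidneys, against 382, 679 and 417 CPM in SMOC2 normal kidneys. In WT, Cyp2a4 was at 14.8, 42.1, 20.7 and 60.1 CPM in UUO kidneys, against 266, 527 and 179 CPM in normal kidneys. Cyp2a4 had a log2 fold change of -3.68 (SE 0.45, adjusted p = 7e-06) in SMOC2-labelled and -3.24 (SE 0.44, adjusted p = 2.25e-05) in WT kidneys. Obstructed and normal libraries of Cyp2a4 did not overlap. Cyp2a5 was at 2.77, 3.88, 6.72 and 5.28 CPM in SMOC2 UUO kidneys, against 91.2, 90.3 and 104 CPM in SMOC2 normal kidneys. In WT, Cyp2a5 was at 2.94, 4.88, 2.51 and 3.25 CPM in UUO kidneys, against 68.8, 57.5 and 28.8 CPM in normal kidneys. Nor did those of Cyp2a5. Cyp2a5 changed on the log2 scale by -4.36 (SE 0.32, adjusted p = 7.29e-08) in SMOC2-labelled and -3.92 (SE 0.32, adjusted p = 2.09e-07) in WT kidneys. An exon of Gm42375 overlaps Cyp2a4 on the opposite strand, and since the strand setting of the counting is not given, reads in the overlap cannot be told apart. Cyp2c23, a renal epoxygenase, was at 3.83 to 7.46 CPM in SMOC2 UUO and 7.71 to 15.1 CPM in SMOC2 normal kidneys, and at 2.405 to 5.99 CPM in WT UUO and 8.38 to 16.01 CPM in WT normal kidneys. Its log2 fold changes were -0.97 and -1.605 in SMOC2-labelled and WT kidneys. The SMOC2 call of Cyp2c23 was lost without SMOC2 UUO replicate 1 or SMOC2 normal replicates 1 or 4 (adjusted p from 0.0517 to 0.105). Cyp2u1, a fatty acid hydroxylase, fell by 1.102 and 1.01. An exon of 4930534D22Rik overlaps Cyp2u1 on the opposite strand. Cyp2b9 fell by 1.81 and 2.29, the WT value reaching -3.14 without WT UUO replicate 2. Of the windows of Cyp2u1 and Cyp2b9, 12.3% and 11.2% were shared with another gene. Near the detection limit, Cyp2f2, known for naphthalene oxidation in lung, was at 0.0396 to 0.244 CPM in SMOC2 UUO and 1.22 to 1.94 CPM in SMOC2 normal kidneys, and at 0.0673 to 0.0855 CPM in WT UUO and 1.01 to 2.53 CPM in WT normal kidneys. These values are a description, since Cyp2f2 met the count minimum through normal kidneys alone. An exon of Gm15883 overlaps Cyp2f2 on the opposite strand. Cyp2c69 had 2 counts over the SMOC2 UUO libraries, all in replicate 1, and 40 over the SMOC2 normal ones, values given as a description since Cyp2c69 met the count minimum through normal kidneys alone. Of its 50-base windows 54.3% were shared with another gene, mostly Cyp2c40, the largest share among members, so its counts are uncertain. In WT it was at 0 to 0.0718 CPM in UUO and 0.818 to 1.01 CPM in normal kidneys.

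Cyp2e1, which oxidises ethanol and acetone, was one of 8 members called in neither label. Cyp2e1 was at 31.5, 22.6, 27.9 and 57.1 CPM in SMOC2 UUO kidneys, against 78.8, 68.6 and 85.2 CPM in SMOC2 normal kidneys. In WT, Cyp2e1 was at 20.7, 60.2, 24.5 and 87.9 CPM in UUO kidneys, against 211, 63.1 and 50.3 CPM in normal kidneys. The SMOC2 groups did not overlap, whereas the WT groups did, and WT normal replicate 1 stood far above the other two. For Cyp2e1 the log2 fold change was -1.16 (SE 0.53, adjusted p = 0.0727) in SMOC2-labelled and -1.16 (SE 0.53, adjusted p = 0.0711) in WT kidneys. Without WT normal replicate 1 the WT value was -0.23 (adjusted p = 0.714). Cyp2e1 passed in SMOC2 kidneys without SMOC2 UUO replicate 4 (adjusted p = 0.0351), and with only the groups compared (adjusted p = 0.00421). Cyp2e1 passed in WT kidneys without WT UUO replicate 4 or WT normal replicates 2 or 3 (adjusted p from 0.0186 to 0.0477). Cyp2t4 was below 1 CPM in every library, with log2 fold changes of 0.598 and -0.12 in SMOC2-labelled and WT kidneys that did not pass. Cyp2s1, an enzyme of epithelia outside the liver, was the CYP2 member of this group that rose. Cyp2s1 was at 55.1, 53.96, 67.7 and 59.7 CPM in SMOC2 UUO kidneys, against 31.9, 31.02 and 31.7 CPM in SMOC2 normal kidneys. In WT, Cyp2s1 was at 41.2, 45.4, 46.3 and 36.9 CPM in UUO kidneys, against 32.3, 32.5 and 26.4 CPM in normal kidneys. Each obstructed library was above the normal ones. Cyp2s1 had a log2 fold change of 0.91 (SE 0.11, adjusted p = 4.8e-06) in SMOC2-labelled and 0.48 (SE 0.11, adjusted p = 0.00117) in WT kidneys.

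The 4 CYP2D members, relatives of the human drug-metabolising CYP2D enzymes, fell in both labels. Among all genes 30.4% in SMOC2-labelled and 29.8% in WT kidneys were called lower. Cyp2d12 (chr15:82555072-82560403, plus strand) fell the furthest of all members. Cyp2d12 was at 2.77, 1.31, 1.63 and 1.83 CPM in SMOC2 UUO kidneys, against 69.1, 62.6 and 156 CPM in SMOC2 normal kidneys. In WT, Cyp2d12 was at 0.431, 1.31, 2.48 and 1.41 CPM in UUO kidneys, against 36.5, 43.04 and 82.6 CPM in normal kidneys. No obstructed library reached 3 CPM. Cyp2d12 changed on the log2 scale by -5.65 (SE 0.47, adjusted p = 1.98e-07) in SMOC2-labelled and -5.26 (SE 0.48, adjusted p = 4.8e-07) in WT kidneys. Cyp2d26 (chr15:82790101-82794294, minus strand) was the most abundant of the 4 per kilobase in normal kidneys. Cyp2d26 was at 14.2, 19.4, 22.2 and 22.2 CPM in SMOC2 UUO kidneys, against 239.8, 167 and 287 CPM in SMOC2 normal kidneys. In WT, Cyp2d26 was at 6.43, 23.2, 10.6 and 40.2 CPM in UUO kidneys, against 296, 184 and 193 CPM in normal kidneys. These groups did not overlap. For Cyp2d26 the log2 fold change was -3.57 (SE 0.46, adjusted p = 1.21e-05) in SMOC2-labelled and -3.49 (SE 0.46, adjusted p = 1.59e-05) in WT kidneys. Cyp2d22 fell by 0.996 on the log2 scale in SMOC2-labelled and by 0.997 in WT kidneys, with 65.6 to 93.4 CPM in SMOC2 UUO and 132 to 180.3 CPM in SMOC2 normal kidneys. Cyp2d9, a steroid hydroxylase, changed by -1.73 and -1.29 in SMOC2-labelled and WT kidneys. Of its 50-base windows 21.8% were shared with another gene, so its counts are uncertain. The WT call of Cyp2d9 was lost without WT normal replicate 2 (log2 fold change -0.62, adjusted p = 0.151) and with only the groups compared (adjusted p = 0.0517).

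Cyp3a13 was the only CYP3A member, from the subfamily that clears many drugs. Cyp3a13 was at 18.1, 10.3, 9.12 and 14.4 CPM in SMOC2 UUO kidneys, against 1.63, 1.83 and 0.312 CPM in SMOC2 normal kidneys. In WT, Cyp3a13 was at 3.88, 4.81, 2.65 and 10.6 CPM in UUO kidneys, against 1.19, 0.894 and 4.402 CPM in normal kidneys. The SMOC2 groups were apart, and the WT groups overlapped. Cyp3a13 had a log2 fold change of 3.38 (SE 0.67, adjusted p = 0.000537) in SMOC2-labelled and 1.301 (SE 0.601, adjusted p = 0.0752) in WT kidneys. The WT value was 2.37 without WT normal replicate 3 and 0.77 without WT UUO replicate 4. Cyp3a13 passed in WT kidneys without WT UUO replicate 3 or WT normal replicate 3 (adjusted p from 0.00744 to 0.0448). The interaction of label and UUO, which tests the difference between those changes, did not pass (unadjusted p = 0.0317, adjusted p = 0.735).

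CYP4A enzymes hydroxylate the end of fatty acid chains, and several are targets of the receptor PPARα. Of the 6 CYP4A members and Cyp4b1, 5 fell and 2 rose in each label. Beside this, 30.4% of all genes were called lower and 32.5% higher in SMOC2-labelled kidneys, and 29.8% and 31.3% in WT kidneys. Cyp4a10 and Cyp4a14, the lipid-induced members, fell. Cyp4a10 was at 38.8, 105, 130.1 and 95.01 CPM in SMOC2 UUO kidneys, against 534, 721 and 604 CPM in SMOC2 normal kidneys. In WT, Cyp4a10 was at 33.6, 79.4, 29.4 and 135 CPM in UUO kidneys, against 473, 814 and 507 CPM in normal kidneys. Cyp4a10 changed on the log2 scale by -2.75 (SE 0.48, adjusted p = 0.0002) in SMOC2-labelled and -3.11 (SE 0.49, adjusted p = 8.06e-05) in WT kidneys. Obstructed libraries of Cyp4a10 were all below normal ones. Cyp4a14 was at 12.7, 51.8, 125 and 51.5 CPM in SMOC2 UUO kidneys, against 754, 713 and 788 CPM in SMOC2 normal kidneys. In WT, Cyp4a14 was at 33.8, 31.1, 17.9 and 158 CPM in UUO kidneys, against 852, 566 and 646 CPM in normal kidneys. So were those of Cyp4a14, in which WT UUO replicate 4 and SMOC2 UUO replicate 3 stood above the rest of their groups. For Cyp4a14 the log2 fold change was -3.64 (SE 0.72, adjusted p = 0.000537) in SMOC2-labelled and -3.52 (SE 0.72, adjusted p = 0.000707) in WT kidneys. Without WT UUO replicate 4 the WT value was -4.64, and without SMOC2 UUO replicate 3 the SMOC2 value was -4.28. Cyp4b1, a fatty acid and xenobiotic hydroxylase, fell too. Cyp4b1 was at 18.1, 30.5, 30.8 and 28.7 CPM in SMOC2 UUO kidneys, against 558, 429 and 283 CPM in SMOC2 normal kidneys. In WT, Cyp4b1 was at 16.8, 60.99, 34.6 and 51.03 CPM in UUO kidneys, against 543, 415 and 290 CPM in normal kidneys. Its groups were apart in both labels. Cyp4b1 had a log2 fold change of -3.97 (SE 0.39, adjusted p = 7.96e-07) in SMOC2-labelled and -3.35 (SE 0.38, adjusted p = 3.37e-06) in WT kidneys. Cyp4a31 changed by -1.71 and -2.84 in SMOC2-labelled and WT kidneys, and the SMOC2 value was -1.10 (adjusted p = 0.0788) without SMOC2 normal replicate 4. Cyp4a32, at most 2.55 CPM, changed by -2.16 and -1.86, and the WT value was -2.63 without WT UUO replicate 4 and -0.69 (adjusted p = 0.424) without WT normal replicate 2. The WT call of Cyp4a32 was lost without WT UUO replicates 1, 2 or 3 or WT normal replicate 2 (adjusted p from 0.0691 to 0.424), and with only the groups compared (adjusted p = 0.0761).

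The 2 CYP4A members that rose are Cyp4a12a and Cyp4a12b, enzymes that make the hydroxy acid from arachidonic acid and that depend on androgens in the mouse. Cyp4a12a was at 25.6, 53.3, 37.6 and 58.9 CPM in SMOC2 UUO kidneys, against 9.96, 7.16 and 6.04 CPM in SMOC2 normal kidneys. In WT, Cyp4a12a was at 27.8, 33.02, 17.4 and 31.8 CPM in UUO kidneys, against 19.97, 5.87 and 4.36 CPM in normal kidneys. The groups did not overlap in SMOC2-labelled kidneys, while WT normal replicate 1 lay inside the WT UUO range. Cyp4a12a changed on the log2 scale by 2.51 (SE 0.47, adjusted p = 0.000362) in SMOC2-labelled and 1.45 (SE 0.45, adjusted p = 0.0123) in WT kidneys. Cyp4a12a missed the threshold in WT kidneys without WT normal replicates 2 or 3 (adjusted p from 0.0534 to 0.0579). Cyp4a12b was at 18.1, 24.01, 30.8 and 31.6 CPM in SMOC2 UUO kidneys, against 0.877, 0.832 and 0.677 CPM in SMOC2 normal kidneys. In WT, Cyp4a12b was at 19.1, 9.93, 13.8 and 15.05 CPM in UUO kidneys, against 5.38, 0.783 and 1.01 CPM in normal kidneys. Here too WT normal replicate 1 was the highest normal library, yet below every obstructed one. For Cyp4a12b the log2 fold change was 5.03 (SE 0.59, adjusted p = 4.43e-06) in SMOC2-labelled and 2.58 (SE 0.49, adjusted p = 0.000398) in WT kidneys. Without that library the WT values were 2.44 for Cyp4a12a and 3.98 for Cyp4a12b. The interaction of label and UUO for Cyp4a12b was 2.46 (SE 0.74) with an unadjusted p of 0.00532 and an adjusted p of 0.608, and it was 1.05 without WT normal replicate 1. Of the 50-base windows of Cyp4a12a and Cyp4a12b 48.9% and 49.4% were shared with another gene. For Cyp4a10, Cyp4a31 and Cyp4a32 the shares were 29.8%, 20.6% and 43.8%. Counts of single CYP4A members are therefore uncertain. Summed over the 6 CYP4A members, the level was 147 to 434 CPM in SMOC2 UUO and 1464 to 1845 CPM in SMOC2 normal kidneys, and 117 to 437 CPM in WT UUO and 1559.9 to 1821 CPM in WT normal kidneys. The gene of the receptor, Ppara, fell by 2.28 and 2.24 on the log2 scale (adjusted p = 6.38e-05 and 7.76e-05) in SMOC2-labelled and WT kidneys.

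CYP4F enzymes inactivate leukotrienes and hydroxylate other lipids, and Cyp4v3 is the mouse counterpart of the human gene of Bietti crystalline dystrophy. Among 9 members 4 rose, 2 fell and 3 did not pass in each label. Since 62.8% of all genes in SMOC2-labelled and 61.1% in WT kidneys were called, the count alone does not set these members apart. Cyp4f14, a leukotriene hydroxylase of liver and kidney, fell. Cyp4f14 was at 0.685, 0.515, 0.884 and 1.14 CPM in SMOC2 UUO kidneys, against 13.2, 17.1 and 18.5 CPM in SMOC2 normal kidneys. In WT, Cyp4f14 was at 0.575, 1.38, 0.601 and 1.92 CPM in UUO kidneys, against 11.8, 18.3 and 15.4 CPM in normal kidneys. Groups were far apart. Cyp4f14 had a log2 fold change of -4.33 (SE 0.37, adjusted p = 2.26e-07) in SMOC2-labelled and -3.77 (SE 0.35, adjusted p = 6.67e-07) in WT kidneys. Cyp4f13 fell by 0.66 and 0.51 on the log2 scale in SMOC2-labelled and WT kidneys. Cyp4v3, a fatty acid hydroxylase, rose. Cyp4v3 was at 22.2, 17.8, 21.6 and 29.02 CPM in SMOC2 UUO kidneys, against 9.14, 8.05 and 7.55 CPM in SMOC2 normal kidneys. In WT, Cyp4v3 was at 30.3, 24.5, 28.4 and 25.4 CPM in UUO kidneys, against 8.77, 6.204 and 8.69 CPM in normal kidneys. Cyp4v3 changed on the log2 scale by 1.46 (SE 0.17, adjusted p = 4.22e-06) in SMOC2-labelled and 1.78 (SE 0.17, adjusted p = 7.59e-07) in WT kidneys. Gm45753 overlaps it on the same strand and shares 7.02% of its windows. All obstructed libraries of Cyp4v3 lay above the normal ones. Cyp4f16 was at 21.8, 17.1, 19.2 and 18.5 CPM in SMOC2 UUO kidneys, against 8.01, 6.71 and 6.77 CPM in SMOC2 normal kidneys. In WT, Cyp4f16 was at 21.2, 16.4, 16.7 and 20.2 CPM in UUO kidneys, against 7.89, 6.54 and 10.5 CPM in normal kidneys. The same held for Cyp4f16. For Cyp4f16 the log2 fold change was 1.42 (SE 0.16, adjusted p = 3.96e-06) in SMOC2-labelled and 1.15 (SE 0.16, adjusted p = 2.47e-05) in WT kidneys. Cyp4f17 rose by a small amount. Cyp4f17 was at 17.7, 22.6, 20.2 and 23.5 CPM in SMOC2 UUO kidneys, against 13.4, 16.6 and 18.6 CPM in SMOC2 normal kidneys. In WT, Cyp4f17 was at 19.1, 18.7, 23.9 and 15.99 CPM in UUO kidneys, against 15.3, 15.6 and 13.8 CPM in normal kidneys. Its SMOC2 groups overlapped, and its WT groups did not. Cyp4f17 had a log2 fold change of 0.37 (SE 0.15, adjusted p = 0.041) in SMOC2-labelled and 0.39 (SE 0.15, adjusted p = 0.0355) in WT kidneys. The SMOC2 call of Cyp4f17 was lost without SMOC2 UUO replicates 2, 3 or 4 or SMOC2 normal replicates 1 or 3 (adjusted p from 0.0525 to 0.185), and with no filter on low counts (adjusted p = 0.0509). Cyp4f17 missed the threshold in WT kidneys without WT UUO replicates 1 or 3 or WT normal replicates 1, 2 or 3 (adjusted p from 0.0534 to 0.119), and with no filter on low counts (adjusted p = 0.0511). Cyp4f18, a leukotriene hydroxylase of neutrophils and other myeloid cells, had 105 counts over the SMOC2 UUO libraries and 1 over the SMOC2 normal ones, a ratio of 50.6 (95% interval 8.89 to 2019, exact and for counting error only). In WT it was at 0.646, 0.7405, 3.68 and 0.4702 CPM in UUO kidneys, against 0, 0.168 and 0.3895 CPM in normal kidneys. The WT log2 fold change of 2.82 was 1.67 without WT UUO replicate 3 and 4.11 without WT normal replicate 3. An exon of Zfp961 overlaps Cyp4f18 on the opposite strand. Cyp4f18 met the minimum of 3 libraries only through obstructed kidneys, so its rises are not independent of that minimum. Cyp4f15, Cyp4f37 and Cyp4f39 stayed below 1.5 CPM in every library and were called in neither label.

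CYP26 enzymes degrade retinoic acid. Both members were called lower in SMOC2-labelled kidneys only. Cyp26b1 was at 9.21, 1.43, 1.48 and 1.34 CPM in SMOC2 UUO kidneys, against 8.83, 20.3 and 14.7 CPM in SMOC2 normal kidneys. In WT, Cyp26b1 was at 0.467, 7.84, 9.58 and 6.84 CPM in UUO kidneys, against 10.6, 5.198 and 24.5 CPM in normal kidneys. SMOC2 UUO replicate 1 was far above the other 3, inside the normal range, and the WT groups overlapped. Cyp26b1 changed on the log2 scale by -2.096 (SE 0.82, adjusted p = 0.0381) in SMOC2-labelled and -1.13 (SE 0.799, adjusted p = 0.238) in WT kidneys. The SMOC2 call of Cyp26b1 was lost without SMOC2 UUO replicates 2, 3 or 4 or SMOC2 normal replicates 3 or 4 (adjusted p from 0.0716 to 0.114). Without SMOC2 UUO replicate 1 the SMOC2 value was -3.36, and without WT normal replicate 3 the WT value was -0.36 (adjusted p = 0.752). Cyp26a1 was at 0.249, 0.594, 0.495 and 0.284 CPM in SMOC2 UUO kidneys, against 0.877, 0.943 and 0.833 CPM in SMOC2 normal kidneys. In WT, Cyp26a1 was at 0.359, 0.505, 0.955 and 0.427 CPM in UUO kidneys, against 1.102, 0.894 and 0.896 CPM in normal kidneys. The SMOC2 groups of Cyp26a1 did not overlap. For Cyp26a1 the log2 fold change was -1.12 (SE 0.38, adjusted p = 0.019) in SMOC2-labelled and -0.77 (SE 0.36, adjusted p = 0.0786) in WT kidneys. Cyp26a1 missed the threshold in SMOC2 kidneys without SMOC2 UUO replicate 1 or SMOC2 normal replicate 3 (adjusted p from 0.0545 to 0.0553). Cyp26a1 passed in WT kidneys without WT UUO replicate 3 (adjusted p = 0.01). The interaction had an unadjusted p of 0.414 for Cyp26b1 and 0.509 for Cyp26a1, so a difference between the labels was not shown. Of 10 other genes of retinoid handling 4 rose and 2 fell in SMOC2-labelled kidneys, and 4 rose and 3 fell in WT kidneys. Among all genes 62.8% and 61.1% were called in those kidneys, so these counts alone do not set the list apart. Aldh1a2, which makes retinoic acid, averaged 161 ± 19.9 CPM in SMOC2 UUO and 25.4 ± 3.07 CPM in SMOC2 normal kidneys, and 143 ± 24.5 CPM in WT UUO and 20.4 ± 7.55 CPM in WT normal kidneys. Stra6, a receptor for retinol uptake, averaged 90.4 ± 14.9 CPM in SMOC2 UUO and 6.92 ± 3.15 CPM in SMOC2 normal kidneys, and 60.5 ± 27.05 CPM in WT UUO and 4.102 ± 1.06 CPM in WT normal kidneys. Both rose in each label, Aldh1a2 by 2.66 and 2.82 and Stra6 by 3.699 and 3.89 on the log2 scale in SMOC2-labelled and WT kidneys.

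Sterol, bile acid, steroid and vitamin D enzymes form the last group. Cyp51 (chr5:4081145-4104746, minus strand), the lanosterol demethylase of cholesterol synthesis, was the abundant one. Cyp51 was at 72.6, 57.01, 64.3 and 79.3 CPM in SMOC2 UUO kidneys, against 628, 446 and 551 CPM in SMOC2 normal kidneys. In WT, Cyp51 was at 70.7, 96.6, 41.8 and 129 CPM in UUO kidneys, against 472, 599.6 and 418 CPM in normal kidneys. Obstructed libraries were well below normal ones. Cyp51 had a log2 fold change of -2.99 (SE 0.29, adjusted p = 7.1e-07) in SMOC2-labelled and -2.56 (SE 0.28, adjusted p = 2.94e-06) in WT kidneys. An exon of Akap9 overlaps Cyp51 on the opposite strand over 2.63% of the Cyp51 windows, and reads in that stretch cannot be told apart. Of 15 other genes of sterol synthesis and uptake 10 fell in SMOC2-labelled and 9 in WT kidneys, and none rose. Among all genes 30.4% and 29.8% were called lower. The median log2 fold change of these 15 genes was -0.76 and -0.68 in SMOC2-labelled and WT kidneys, beside 0.04 and 0.05 over all genes. Mvd, a decarboxylase of the mevalonate steps, fell by 1.57 and 1.36, and Lss, which makes lanosterol, by 0.82 and 0.54. Cyp27a1, the mitochondrial sterol hydroxylase, was called in SMOC2-labelled kidneys only. Cyp27a1 was at 29.4, 26.3, 39.7 and 44.97 CPM in SMOC2 UUO kidneys, against 54.3, 50.6 and 46.03 CPM in SMOC2 normal kidneys. In WT, Cyp27a1 was at 41.7, 34.8, 52.8 and 45.2 CPM in UUO kidneys, against 50.3, 42.7 and 43.1 CPM in normal kidneys. SMOC2 obstructed libraries were below the SMOC2 normal ones, and the WT groups overlapped. Cyp27a1 changed on the log2 scale by -0.52 (SE 0.17, adjusted p = 0.0171) in SMOC2-labelled and -0.06 (SE 0.17, adjusted p = 0.794) in WT kidneys. Cyp27a1 missed the threshold in SMOC2 kidneys without SMOC2 UUO replicate 1 or SMOC2 normal replicate 1 (adjusted p from 0.0505 to 0.0625), and under upper-quartile scaling (adjusted p = 0.0583). Cyp7b1, an oxysterol hydroxylase, was called higher in SMOC2-labelled kidneys only. Cyp7b1 was at 10.1, 7.65, 8.02 and 8.73 CPM in SMOC2 UUO kidneys, against 4.07, 6.88 and 2.81 CPM in SMOC2 normal kidneys. In WT, Cyp7b1 was at 7.15, 7.98, 7.18 and 8.85 CPM in UUO kidneys, against 3.53, 8.38 and 2.38 CPM in normal kidneys. In WT, normal replicate 2 lay within the obstructed range. For Cyp7b1 the log2 fold change was 0.91 (SE 0.36, adjusted p = 0.0397) in SMOC2-labelled and 0.73 (SE 0.36, adjusted p = 0.0925) in WT kidneys. The SMOC2 call of Cyp7b1 was lost without SMOC2 UUO replicates 1, 3 or 4 or SMOC2 normal replicates 1 or 4 (adjusted p from 0.0533 to 0.167). Cyp7b1 passed in WT kidneys without WT normal replicate 2 (adjusted p = 0.00146). Its WT value was 1.4 without that library. Unadjusted p of the interaction was 0.0795 for Cyp27a1 and 0.719 for Cyp7b1. Cyp2r1, a vitamin D hydroxylase, was called higher in WT kidneys only. Cyp2r1 was at 1.37, 1.23, 1.27 and 0.406 CPM in SMOC2 UUO kidneys, against 0.814, 0.777 and 0.885 CPM in SMOC2 normal kidneys. In WT, Cyp2r1 was at 1.08, 1.25, 0.955 and 1.197 CPM in UUO kidneys, against 0.0882, 0.615 and 0.156 CPM in normal kidneys. WT groups were apart, and WT normal replicate 1 was lowest. Cyp2r1 had a log2 fold change of 0.38 (SE 0.46, adjusted p = 0.492) in SMOC2-labelled and 2.04 (SE 0.53, adjusted p = 0.00392) in WT kidneys. The WT value was 3.13 without WT normal replicate 2, and the interaction for Cyp2r1 had an unadjusted p of 0.0325 and an adjusted p of 0.735.

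Cyp39a1 and Cyp46a1, which act on side-chain oxysterols and on brain cholesterol, passed in neither label. Cyp39a1 was at 10.2, 10.3, 11.1 and 9.7 CPM in SMOC2 UUO kidneys, against 10.9, 10.8 and 10.5 CPM in SMOC2 normal kidneys. In WT, Cyp39a1 was at 14.3, 17.97, 11.7 and 12.1 CPM in UUO kidneys, against 14.3, 13.7 and 14.6 CPM in normal kidneys. Cyp46a1 was at 5.79, 3.8, 7.64 and 4.79 CPM in SMOC2 UUO kidneys, against 5.45, 9.66 and 7.45 CPM in SMOC2 normal kidneys. In WT, Cyp46a1 was at 5.96, 5.65, 6.51 and 4.7 CPM in UUO kidneys, against 4.76, 3.47 and 4.71 CPM in normal kidneys. Its log2 fold change was -0.45 in SMOC2-labelled and 0.4 in WT kidneys. Cyp46a1 passed in SMOC2 kidneys without SMOC2 UUO replicate 3 or SMOC2 normal replicate 1 (adjusted p from 0.0274 to 0.0445). Cyp17a1, the steroid hydroxylase of adrenal and gonad, and Cyp8b1, the bile acid hydroxylase of liver, were both at about 1 CPM or less. Cyp17a1 changed by -3.01 and -1.32 in SMOC2-labelled and WT kidneys (adjusted p = 0.000408 and 0.0333). Cyp17a1 met the minimum of 3 libraries only through normal kidneys, so its falls are not independent of that minimum. Cyp17a1 missed the threshold in WT kidneys without WT UUO replicates 1, 2 or 4 or WT normal replicates 1 or 2 (adjusted p from 0.0503 to 0.218), and with no filter on low counts (adjusted p = 0.0551), and with only the groups compared (adjusted p = 0.0619). Cyp8b1 had 48 counts over the WT UUO libraries and 3 over the WT normal ones, values given as a description since it met the count minimum through obstructed kidneys alone. In SMOC2-labelled kidneys Cyp8b1 was at 0.203 to 0.515 CPM with UUO and 0.0521 to 0.111 CPM without. Markers of adrenal cortex summed to 54.02 to 56.97 CPM in SMOC2 UUO and 35 to 38.7 CPM in SMOC2 normal kidneys, and to 47.6 to 51.5 CPM in WT UUO and 30.9 to 36.1 CPM in WT normal kidneys. Of 6 tested, 2 rose and 1 fell in SMOC2-labelled and 3 rose and 1 fell in WT kidneys, and the defining gene Nr5a1 was at 0 in 11 of 14 libraries. Liver markers summed to 82.6 to 222 CPM in SMOC2 UUO and 40.6 to 109.7 CPM in SMOC2 normal kidneys, and to 14.7 to 139 CPM in WT UUO and 46.5 to 57.2 CPM in WT normal kidneys. Of 5 tested, 1 rose and 3 fell in SMOC2-labelled kidneys and 2 fell in WT kidneys, and Cps1 was at 0 in 10 of 14 libraries. Among all genes 62.8% in SMOC2-labelled and 61.1% in WT kidneys were called, so the counts of adrenal and liver markers alone do not set them apart. The part of these tissues in the levels of Cyp17a1 and Cyp8b1 was not tested. Cyp20a1, an orphan enzyme without an assigned substrate, rose slightly, by 0.37 and 0.33 on the log2 scale in SMOC2-labelled and WT kidneys. The WT call of Cyp20a1 was lost without WT normal replicate 1 (adjusted p = 0.0656).

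The partners of the enzymes moved with the larger part of the family. Of 19 genes for electron transfer and haem supply 16 fell and 1 rose in SMOC2-labelled kidneys, and 15 fell and 3 rose in WT kidneys, with median log2 fold changes of -1.06 and -1.04. Beside this, 30.4% of all genes were called lower and 32.5% higher in SMOC2-labelled kidneys, and 29.8% and 31.3% in WT kidneys. Por averaged 154 ± 22.8 CPM in SMOC2 UUO and 611 ± 10.96 CPM in SMOC2 normal kidneys, and 104 ± 19.1 CPM in WT UUO and 459 ± 38.1 CPM in WT normal kidneys. Por, the reductase that serves all microsomal P450 enzymes, fell by 1.99 and 2.15 on the log2 scale in SMOC2-labelled and WT kidneys. Fdx1 averaged 21 ± 2.27 CPM in SMOC2 UUO and 68.99 ± 4.12 CPM in SMOC2 normal kidneys, and 22.2 ± 3.36 CPM in WT UUO and 63.8 ± 5.93 CPM in WT normal kidneys. Fdx1, the electron donor of mitochondrial P450 enzymes, fell by 1.72 and 1.52. Cyb5a, the cytochrome that can pass the second electron, fell by 1.95 and 1.84. Hmox1, which breaks haem down, was the gene of the list that rose in both labels, by 1.47 and 1.31. Hmox1, Ppara, Ahr and Ahrr were picked from their lists after the values were seen. Of 19 nuclear receptors and other regulators tested 11 fell and 3 rose in SMOC2-labelled kidneys, and 10 fell and 4 rose in WT kidneys. In either direction, 62.8% and 61.1% of all genes were called. Hnf4a, a transcription factor of proximal tubule and liver, averaged 352 ± 61.4 CPM in SMOC2 UUO and 1129 ± 60.3 CPM in SMOC2 normal kidneys, and 255 ± 74.1 CPM in WT UUO and 1005 ± 73.9 CPM in WT normal kidneys. Hnf4a fell by 1.68 and 1.98 and Rxra, the partner of many nuclear receptors, by 0.696 and 0.85. Of 11 genes of arachidonic acid and epoxide metabolism outside the family 5 rose and 2 fell in each label. Among all genes 62.8% in SMOC2-labelled and 61.1% in WT kidneys were called, so this count alone does not set the list apart. Alox5ap averaged 12.7 ± 2.11 CPM in SMOC2 UUO and 1.42 ± 0.239 CPM in SMOC2 normal kidneys, and 15.4 ± 1.93 CPM in WT UUO and 1.895 ± 0.624 CPM in WT normal kidneys. Alox5ap, the activator of leukotriene synthesis in leukocytes, rose by 3.16 and 3.01. Ephx2, which hydrolyses the epoxides that CYP2J and CYP2C enzymes make, fell by 1.395 and 1.62. No gene of these lists was called between the genotype labels.

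Gene position gave a further view. Members joined where neighbours lay within 1 Mb formed 5 clusters with 31 members, and 20 stood alone. Of all genes, 30.4% were called lower and 32.5% higher in SMOC2-labelled kidneys, and 29.8% and 31.3% in WT kidneys. In the Cyp2j cluster on chromosome 4 (chr4:96027534-96664154), Cyp2j13 at the low-coordinate end rose and Cyp2j5 at the other end fell. In the Cyp4a and Cyp4b1 cluster (chr4:115299046-115647723), Cyp4a12a and Cyp4a12b at one end rose and the next 5 genes fell in both labels. The 4 Cyp2d genes on chromosome 15 (chr15:82370527-82794294) all fell. On chromosome 7 (chr7:25802475-27158668), Cyp2s1 at one edge rose, the Cyp2b and Cyp2a genes fell and Cyp2t4 at the other edge was not called. Cyp2f2, next to Cyp2t4, was also lower, but it met the count minimum through normal kidneys alone. In the Cyp4f cluster on chromosome 17 (chr17:32452723-32947402), Cyp4f16 and Cyp4f17 rose, and Cyp4f14 and Cyp4f13, adjacent on the minus strand, fell.

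**Figure D4:**
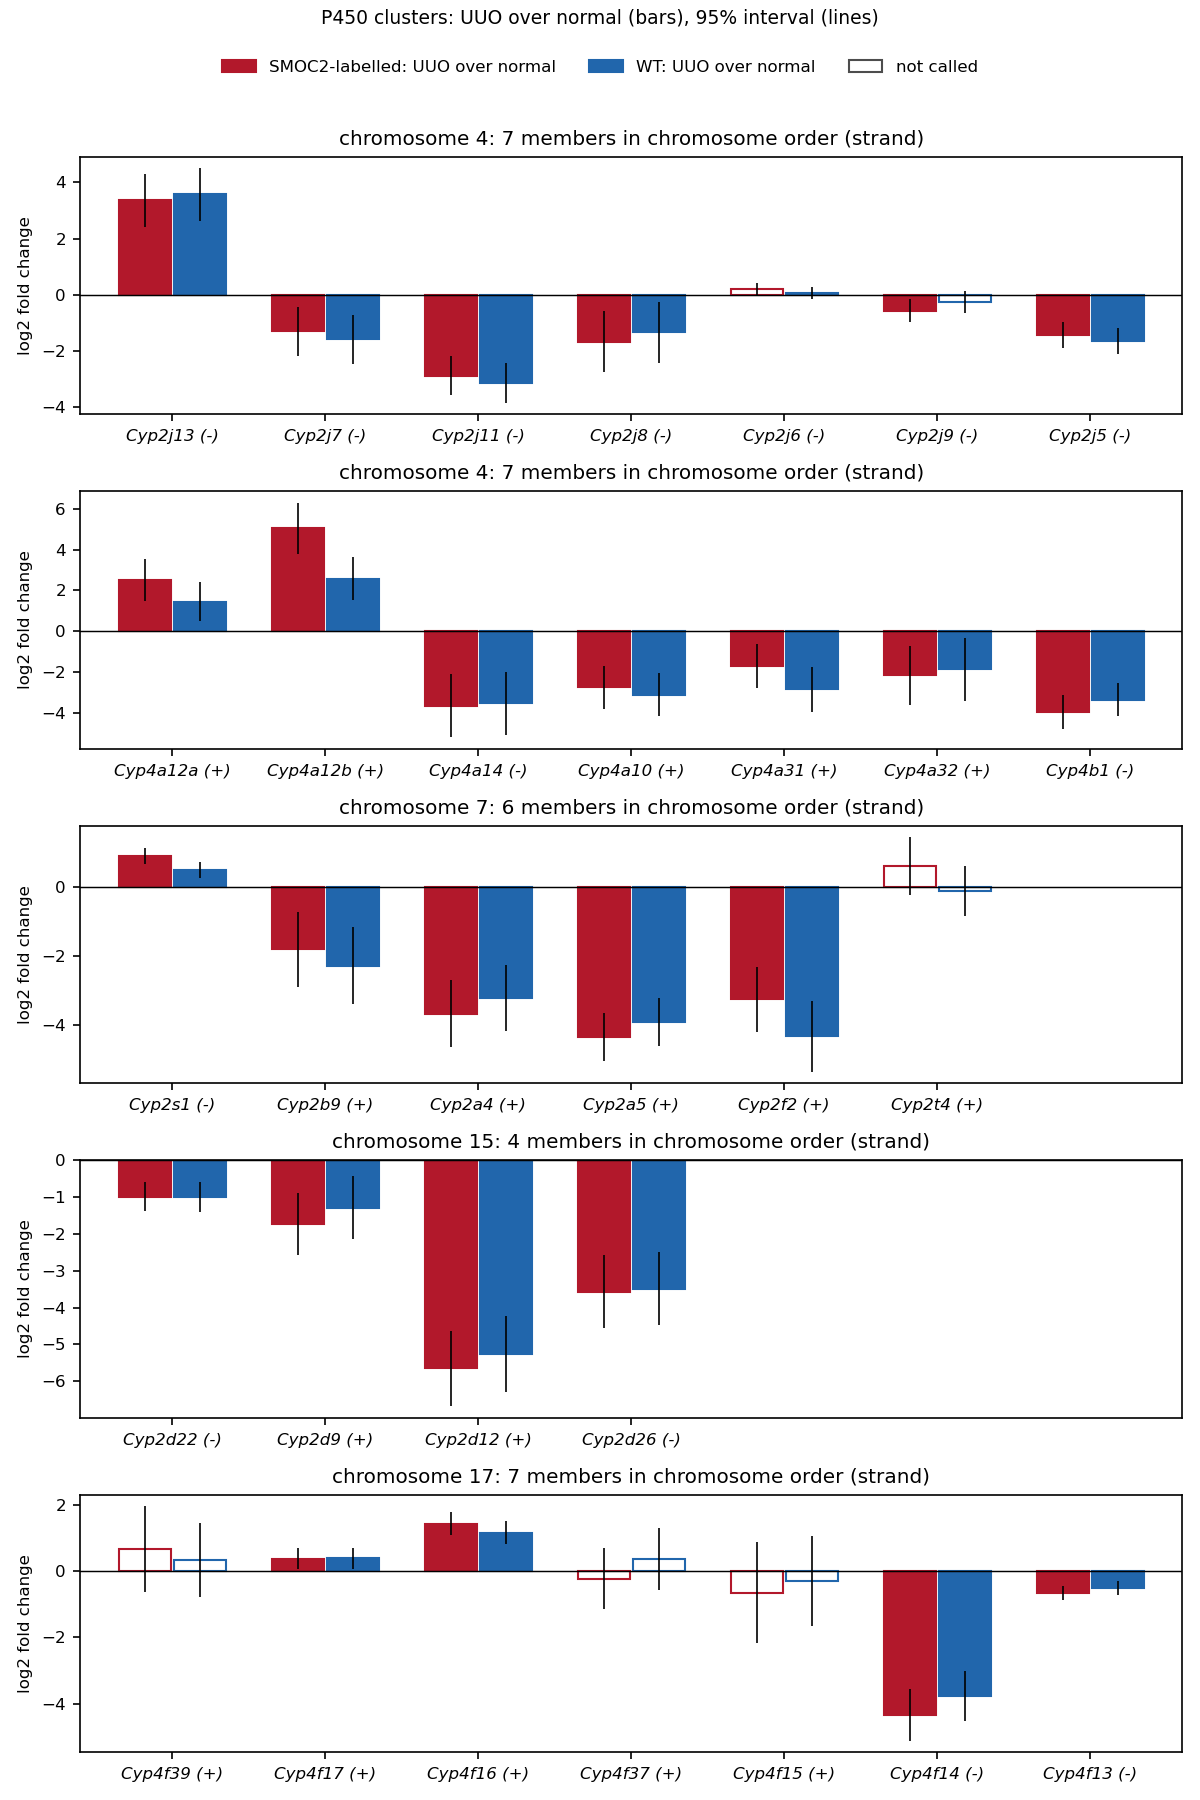
Log2 fold change in UUO over normal kidneys (bars, with 95% intervals as lines) for the 31 members in 5 clusters, in chromosome order, for SMOC2-labelled and WT kidneys. White bars did not pass an adjusted p of 0.05; Cyp2j13, Cyp4a12a, Cyp4a12b, Cyp2s1, Cyp4f16 and Cyp4f17 are the members that rise in their clusters in both labels.

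Between the genotype labels the family differed little. In obstructed kidneys 1 of 51 members was called higher in SMOC2 UUO than in WT UUO kidneys and none lower, where 0.558% of all genes were called higher and 0.273% lower (0.831% in all), and 0.100% lower by at least 2-fold. That member was Cyp2s1, whose 4 SMOC2 UUO libraries all lay above the 4 WT UUO ones given above, with a log2 fold change of 0.48 (SE 0.096, adjusted p = 0.0372) and a 95% interval from 0.27 to 0.68. The call of Cyp2s1 was lost in each fit that left out 1 of these 8 libraries, with adjusted p from 0.0559 to 0.0963, and with only the groups compared (0.0807), and it remained under both other scalings. An exon of Gm26707 overlaps Cyp2s1 on the opposite strand over 4.25% of the Cyp2s1 windows. Cyp39a1 was next by p, and its 4 SMOC2 UUO libraries were all below the WT UUO ones, with a log2 fold change of -0.44 (SE 0.12, adjusted p = 0.101). Cyp17a1 followed, at -1.49 (SE 0.59, adjusted p = 0.243), with overlapping groups. Unadjusted p was under 0.05 for 6 of 51 members, beside 2716 of 17926 genes (15.2%). In normal kidneys no member was called, beside 0.0223% of all genes higher and 0.00558% lower (0.0279% in all) by edgeR, and DESeq2 called none either. An unadjusted p under 0.05 was found for 7 members, beside 2299 of all genes (12.8%), led by Cyp46a1, Cyp2a5 and Cyp39a1. Cyp46a1 was at 5.45, 9.66 and 7.45 CPM in SMOC2 normal kidneys, against 4.76, 3.47 and 4.71 CPM in WT normal kidneys. The libraries did not overlap, and the log2 fold changes of Cyp46a1, Cyp2a5 and Cyp39a1 were 0.798, 0.88 and -0.41, with adjusted p of 0.291, 0.3 and 0.303. For the interaction of label and UUO no member was called, beside 0% of all genes by edgeR. DESeq2 called no member either, and 6 members had an unadjusted p under 0.05, led by Cyp4a12b, Cyp2s1 and Cyp46a1, with values of 2.46, 0.42 and -0.85, beside 1154 of all genes (6.44%). Without WT normal replicate 1 the value of Cyp4a12b was 1.05.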

How the data were processed

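The 14 libraries were made from RNA of frozen kidney with a stranded, poly(A)-selected kit, per the labels' protocols. The deposited values are raw counts per Ensembl gene, and the submitters' processing notes name STAR 2.4.1d, Subread, featureCounts 1.4.4 and mm10. The gene annotation and strand setting of the counting are not given in the sources that were used. Symbols, positions and exon lengths came from GENCODE M21 (GRCm38), to which 47310 of 47729 identifiers matched, and the 419 others held 0.0288% of counts. The 17926 genes that passed edgeR's expression filter were fitted on all 14 libraries by edgeR 4.0.16 (quasi-likelihood test, TMM scaling, 1 mean per group, limma 3.58.1, R 4.3.3), with Benjamini-Hochberg adjustment over all genes and a threshold of 0.05. The same fit gave all 5 comparisons, including the interaction of label and UUO. It was also run on simulated counts drawn from its own estimates, with few genes changed. Since most genes were called with UUO in the real libraries, that run cannot show how the scaling behaves in them. Alternatives were DESeq2 1.42.0, other scalings, filters, sample sets, a replicate block and leaving out each library. The members and lists were chosen with earlier results of these data known. Values in every library are given for the 8 largest falls and 8 largest rises in each UUO comparison among called members with at least 3 CPM in the higher group, the 4 members highest per kilobase in WT normal kidneys, members called between labels (otherwise the 3 with the smallest p), and up to 6 members called in 1 label only, by p. Cyp7b1, the last of 7 such members, came in under the rule on rises. Up to 4 genes of each list are named by p. Counting intervals are exact binomial ones and cover counting error only, since no molecular identifiers were used.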

Additional observations from a re-analysis of the deposited data

Results flagged for a closer look

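In 8 of 102 groups of 4 obstructed libraries (51 members by 2 labels), 1 library stood apart from the other 3 by Dixon's criterion at 95%, where chance flags about 1 in 20 groups. Cyp26b1, which degrades retinoic acid, was at 9.21 CPM in SMOC2 UUO replicate 1, against 1.34 to 1.48 CPM in the other SMOC2 UUO libraries. In that library Cyp4b1 was at 18.1 CPM, against 28.7 to 30.8 CPM in the others, and Cyp2c69 at 0.0622 CPM, against 0 in the others. The Cyp2c69 value stands for 2 counts, and with 0 in the others any count would have been flagged. That flag, counted among the 8, therefore says nothing about Cyp2c69, which met the count minimum through normal kidneys alone. Cyp2r1, a vitamin D hydroxylase, was at 0.406 CPM in SMOC2 UUO replicate 4, against 1.23 to 1.37 CPM in the rest of the group. Cyp2t4 was at 0.277 CPM in SMOC2 UUO replicate 2, against 0.467 to 0.495 CPM in the rest. In WT UUO replicate 4, the fatty acid hydroxylase genes Cyp4a14 and Cyp4a31 were both high, at 158 CPM against 17.9 to 33.8 CPM for Cyp4a14 and at 96.6 CPM against 35.9 to 38.4 CPM for Cyp4a31. That library also had the highest summed level of proximal tubule markers among the WT UUO libraries, 5619.6 CPM against 2169 to 4155 CPM, whose part in these values was not tested. Cyp4f18, a gene of myeloid cells, was at 3.68 CPM in WT UUO replicate 3, against 0.470 to 0.740 CPM in the other WT UUO libraries.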

How the results depend on the processing

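Without any 1 library, 11 to 12 members rose and 25 to 29 fell in SMOC2-labelled kidneys, and 10 to 12 rose and 22 to 25 fell in WT kidneys. Of the calls with a value in all 14 alternatives, 9 of 11 rises and 15 of 21 falls in SMOC2-labelled and 6 of 9 rises and 17 of 18 falls in WT kidneys were kept in each; the other called members were missing from at least 1. Same-numbered libraries did not deviate together (r from -0.0916 to 0.186). With the replicate block, 11 rose and 29 fell in SMOC2-labelled and 11 rose and 25 fell in WT kidneys. The block ended the calls of Cyp7b1, Cyp26b1 and Cyp4f17 in SMOC2-labelled (adjusted p = 0.0823, 0.0931 and 0.0659) and of Cyp17a1 and Cyp4f17 in WT kidneys (0.0829 and 0.0606), and Cyp2e1 passed in both (0.0469 and 0.0366). Between obstructed kidneys of the labels, 0 members were called higher, against 1 in the fit as reported, with the replicate block, with only the groups compared and without any 1 library (0 to 0). DESeq2 called 1 lower, Cyp39a1 (adjusted p = 0.0365); the cause was not tested. Upper-quartile scaling ended the calls of Cyp27a1 and Cyp2j9 in SMOC2-labelled and Cyp2j8 in WT kidneys. Values that changed sign were uncalled throughout. Under upper-quartile scaling, which moved the median of all genes to 0.152 in SMOC2-labelled and 0.158 in WT kidneys, the log2 fold change of Cyp39a1 was 0.0645 in SMOC2-labelled and 0.0942 in WT kidneys, and that of Cyp27a1 was 0.0565 in WT kidneys. With the replicate block, Cyp39a1 was at 0.00812 in WT. Without 1 library each, the WT values ran from -0.161 to 0.0521 for Cyp27a1, -0.315 to 0.0442 for Cyp2t4, -1.17 to 0.0682 for Cyp4f15 and -0.146 to 0.0611 for Cyp39a1, and the SMOC2 value of Cyp4f37 from -0.408 to 0.0692. Members under 1 CPM rest on few counts.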
